A study of Mus musculus with 56 samples.

Results

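Expression of 9 transcription factor genes that act at the entry into the lymphoid lineages was examined in sorted blood progenitors: Ikzf1, Ikzf2, Ikzf3, Satb1, Bcl11a, Foxo1, Notch1, Lef1 and Sox4. The genes were chosen by name, as known factors of lymphoid priming, but with earlier results of these data known. All 9 were found among the 24424 genes of the expression table, and 8 were among the 12133 genes with a mean log2 value of at least 4 that entered the tests. Lef1 had a mean below that level and was read from the same model fitted without the filter, a choice made after its level was seen.

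RNA-seq was done on sorted multipotent (MPP) and granulocyte-macrophage (GMP) progenitors from the bone marrow of C57BL/6 mice. T2F3 mice were Tet2-/- and carried Flt3ITD, an internal tandem duplication in the gene of the FLT3 receptor kinase, and WT marks wild-type mice. Tet2 encodes an enzyme that oxidizes 5-methylcytosine in DNA. MPP were gated as lin- Sca+ cKit+ CD48+ CD150- cells and GMP as lin- Sca- cKit+ CD34+ CD16/32+ cells. There were 3 T2F3 MPP, 4 WT MPP, 3 T2F3 GMP and 5 WT GMP libraries, 15 of the series' 56 samples, and the other 41, from hydroxymethylcytosine profiling and its inputs, were not analysed here. The labels gave no age, no driver or timing of the Tet2 deletion and no word on pooled animals, and nothing named separate animals, so p-values measure the spread between libraries, which may be technical.

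Lymphoid priming is the low-level activation of lymphoid genes in progenitors that can still form other blood cells. The Ikaros family of zinc finger proteins (Ikzf1 to Ikzf3) recruits chromatin remodelling complexes, above all NuRD, to lymphoid genes. SATB1 organizes chromatin loops in early lymphoid cells, and BCL11A, a zinc finger repressor, is needed for B cell development. The NOTCH1 receptor sets the T cell fate when it is bound by a ligand, releasing an intracellular part that acts with the DNA-binding protein RBPJ. FOXO1 is held outside the nucleus by growth factor signalling through AKT and otherwise activates genes such as Il7r and Rag1. LEF1 is a nuclear partner of beta-catenin in Wnt signalling, and SOX4 is an HMG box factor required in early B and T cell development.

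Short DNA motifs of these factors were looked up in the promoters of the members, to describe the sequence at their starts. RefSeq promoter windows of 300 bases (250 before and 50 after an annotated start, GRCm38.p6) were at hand for 15 starts of 7 members, and Ikzf2 and Ikzf3 were not among them. Each motif was searched on both strands. TGGGAA, the core shared by IKAROS and RBPJ sites, occurred in 7 of these windows, at starts of Satb1, Bcl11a, Lef1 and Sox4, against 25.6% of 32851 windows over all genes. CTTTGA, the core of TCF and LEF sites, occurred in 1 window, at an internal start of Lef1, against 16% of all windows. TGACCA, a BCL11A motif, occurred in that same window, against 13.6% of all windows, and shared 3 of its bases with a CTTTGA match there. GTAAACA (FOXO, 3.65% of all windows) and AACAAT (SOX, 10.7%) occurred in none of the 15. Windows of neighbouring starts of the same gene can overlap. The TGGGAA matches with first bases at 38 and 12 from neighbouring Lef1 starts are the same site, counted in both windows. A match describes letters, not a bound site.

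The 250 bases before 4 of these starts are given, chosen after the matches were seen as those whose match lay before the start, for genes that differed between genotypes in MPP. Capitals mark the reverse complement of TGGGAA in Satb1 (chr17:51812055-51812304, minus strand), TGGGAA in Bcl11a (chr11:24080445-24080694, plus strand) and in Sox4 (chr13:28953700-28953949, minus strand), and the reverse complement of CTTTGA, present 2 times, in Lef1 (chr3:131156044-131156293, plus strand).
Satb1: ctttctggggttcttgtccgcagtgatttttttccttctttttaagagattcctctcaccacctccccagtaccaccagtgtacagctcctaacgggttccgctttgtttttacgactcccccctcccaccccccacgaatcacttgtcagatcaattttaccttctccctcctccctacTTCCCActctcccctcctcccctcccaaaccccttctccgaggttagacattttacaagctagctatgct
Bcl11a: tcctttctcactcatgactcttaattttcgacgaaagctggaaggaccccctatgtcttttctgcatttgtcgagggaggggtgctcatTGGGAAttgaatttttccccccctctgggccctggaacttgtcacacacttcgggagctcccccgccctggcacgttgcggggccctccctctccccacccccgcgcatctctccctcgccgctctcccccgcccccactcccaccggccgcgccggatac
Sox4: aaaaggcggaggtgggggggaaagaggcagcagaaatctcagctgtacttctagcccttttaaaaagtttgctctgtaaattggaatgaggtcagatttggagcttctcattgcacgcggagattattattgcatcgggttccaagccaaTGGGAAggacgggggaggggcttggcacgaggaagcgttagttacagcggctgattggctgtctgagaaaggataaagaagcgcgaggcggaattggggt
Lef1: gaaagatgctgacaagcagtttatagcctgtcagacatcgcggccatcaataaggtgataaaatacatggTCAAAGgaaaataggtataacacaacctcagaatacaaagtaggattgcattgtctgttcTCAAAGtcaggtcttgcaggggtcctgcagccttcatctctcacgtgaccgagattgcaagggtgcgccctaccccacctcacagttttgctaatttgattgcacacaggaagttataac
The first base of the match lay at -70 from the start in Satb1, at -161 in Bcl11a and at -100 in Sox4, and the Lef1 matches at -180 and -120. That Satb1 start was the most downstream of the gene's starts at hand, and the window of the most upstream start held no TGGGAA.

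The sort gates were read back in the RNA. Fcgr3, encoding part of the CD16/32 epitope, was higher in GMP than in MPP in T2F3 (log2 difference 1.88, limma adjusted p = 6.18e-06) and in WT (2.11, adjusted p = 7.49e-08). Ly6a, encoding Sca-1, was lower in GMP than in MPP in T2F3 (-0.72, adjusted p = 4.21e-04) and in WT (-0.58, adjusted p = 2.15e-04). Of 12 GMP gate and granulocyte-monocyte markers, 10 were higher and 2, Cd34 and Kit, lower in WT GMP than in WT MPP. Mean log2 values in WT GMP and WT MPP were 11.47 and 12.58 for Cd34, encoding an antigen of the GMP gate. They were 11.52 and 12.30 for Kit, encoding an antigen of both gates. Slamf1, encoding CD150, had a mean log2 value of 2.31 and was not tested. Libraries of a group correlated at 0.973 or more over the tested genes, and no libraries were identical. T2F3 GMP 2 and WT GMP 1 stood apart: over 76 ribosomal protein genes the median distance above the mean of the group's other libraries was 0.84 in T2F3 GMP 2 and 1.09 in WT GMP 1 on the log2 scale, and results that change without them are given with their values. The values are regularized log2 values without counts, so the depth is unknown, differences of weakly expressed genes are shrunken, and levels of different genes are not compared here.

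In MPP, 7 of the 8 tested members were lower in T2F3 than in WT and none was higher, while 19.6% of all tested genes were called lower and 20.7% higher. Ikzf3 had the largest difference, 4.38-fold, followed by Satb1 and Ikzf2 at 2.34-fold and 2.18-fold, and only Ikzf1 did not pass the threshold (Benjamini-Hochberg adjusted p of 0.05). The median log2 difference was -0.66 over the 8 members and -0.02 over all tested genes. In all 9 members the T2F3 MPP values lay below every WT MPP value, a pattern shown by 26.0% of all tested genes. Ikzf3 passed the filter only through its WT level, its T2F3 means being 3.86 in MPP and 3.80 in GMP, so the counts over tested members are a description only. In bulk samples such as these, fewer cells of a type and less RNA per cell cannot be told apart.

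In GMP, 2 of the 8 tested members, Ikzf2 and Ikzf3, were lower in T2F3 than in WT and none was higher, against 6.04% of all tested genes lower and 9.25% higher. The median log2 difference was -0.06 over the members and -0.02 over all tested genes. Ikzf2, Ikzf3 and Lef1 had T2F3 GMP values below every WT GMP value, which 7.49% of all tested genes did.

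**Figure D1:**
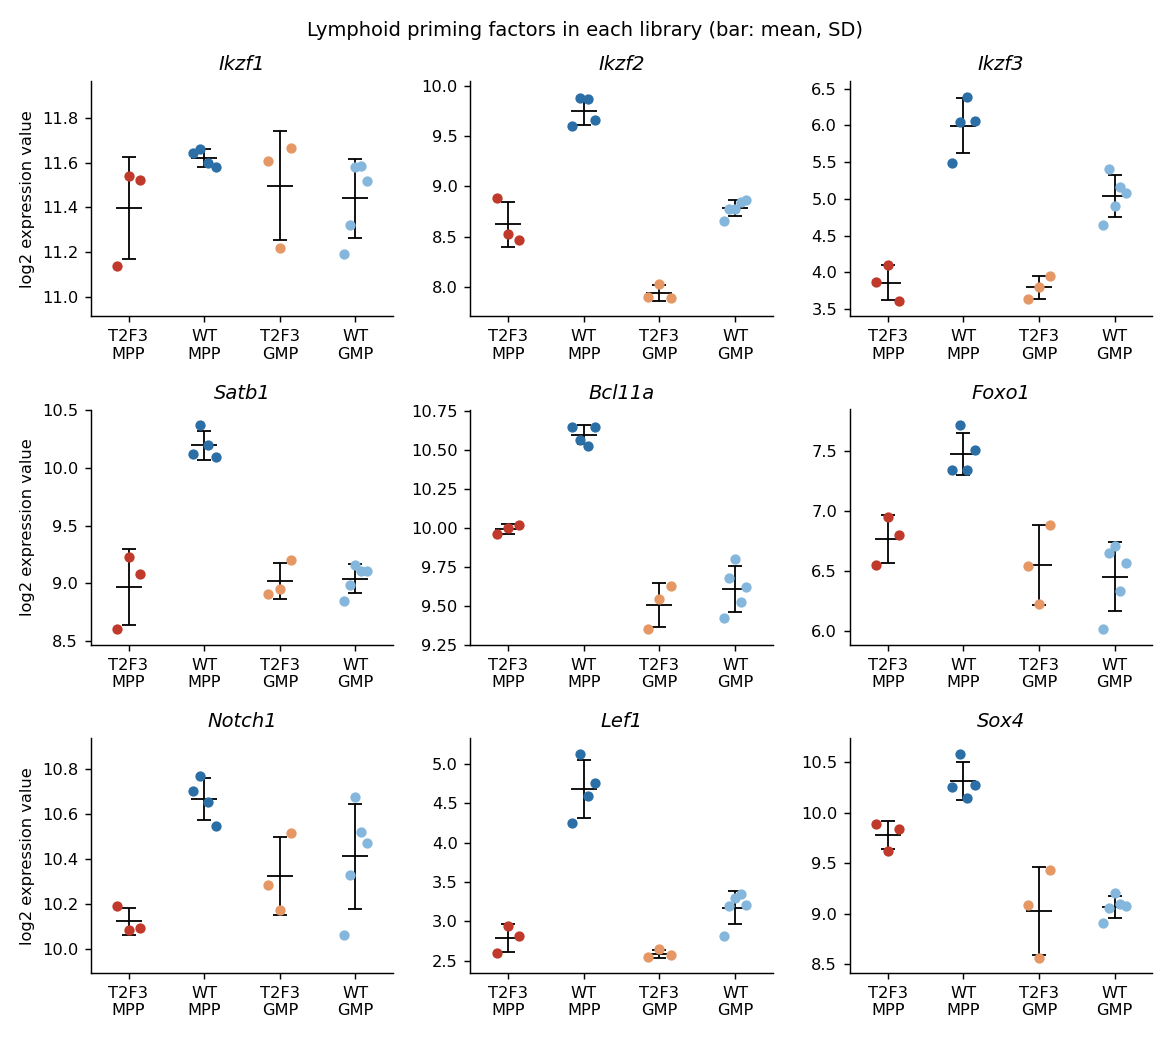
Log2 expression value of each member (vertical axes, a separate scale for each gene) in every library, by group; points are libraries and bars give the mean and SD. In all 9 panels the T2F3 MPP points lie below the WT MPP points, and for Ikzf2, Ikzf3 and Lef1 the T2F3 GMP points also lie below the WT GMP points.

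Ikzf1 encodes IKAROS, the founding member of the family, which lymphoid priming of MPP requires. Its log2 values were 11.14, 11.54 and 11.52 in T2F3 MPP libraries 1, 2 and 3, against 11.64, 11.66, 11.60 and 11.58 in WT MPP libraries 1, 3, 4 and 5. In GMP they were 11.61, 11.22 and 11.67 in T2F3 libraries 1 to 3, against 11.19, 11.32, 11.58, 11.58 and 11.52 in WT libraries 1 to 5. The MPP groups were apart, with T2F3 MPP 1 well below the rest of its group, and the GMP groups overlapped throughout. The log2 difference, T2F3 minus WT, was -0.22 ± 0.13 in MPP (SE, limma adjusted p = 0.188) and 0.06 ± 0.13 in GMP (adjusted p = 0.803). Its 95% interval in MPP, -0.51 to 0.06, includes 0 and does not show that the groups were alike.

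Ikzf2 encodes HELIOS, a family member of stem and progenitor cells and of T cells. Its log2 values were 8.88, 8.53 and 8.47 in T2F3 MPP, against 9.60, 9.87, 9.86 and 9.66 in WT MPP. In GMP they were 7.90, 8.04 and 7.89 in T2F3, against 8.66, 8.78, 8.78, 8.85 and 8.87 in WT. The genotypes were apart in both populations, and T2F3 MPP lay as low as WT GMP, with which it overlapped. It was 2.18-fold lower in T2F3 MPP (-1.12 ± 0.10 on the log2 scale, SE, adjusted p = 7.55e-07) and 1.79-fold lower in T2F3 GMP (-0.84 ± 0.10, adjusted p = 1.44e-05). The difference between these effects, GMP minus MPP, was 0.28 ± 0.14 (adjusted p = 0.295).

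Ikzf3 encodes AIOLOS, which acts mainly in committed B cells. Per library, log2 values were 3.87, 4.10 and 3.62 in T2F3 MPP, against 5.49, 6.05, 6.39 and 6.06 in WT MPP. They were 3.64, 3.80 and 3.96 in T2F3 GMP, against 4.65, 5.40, 4.90, 5.16 and 5.08 in WT GMP. No T2F3 library reached the lowest WT library of either population, and the T2F3 populations overlapped each other. It was 4.38-fold lower in T2F3 MPP (-2.13 ± 0.20, SE, adjusted p = 1.01e-06) and 2.36-fold lower in T2F3 GMP (-1.24 ± 0.19, adjusted p = 2.92e-04). The difference between the effects was 0.89 ± 0.28 (adjusted p = 0.108).

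Satb1 encodes a chromatin organizer that promotes lymphoid potential in stem and progenitor cells. Per library, log2 values were 8.60, 9.23 and 9.08 in T2F3 MPP, against 10.12, 10.37, 10.20 and 10.09 in WT MPP. In GMP, 8.91, 8.95 and 9.20 in T2F3 stood against 8.85, 8.99, 9.16, 9.11 and 9.10 in WT. WT MPP alone was high, and the other 3 groups overlapped one another. It was 2.34-fold lower in T2F3 MPP (-1.23 ± 0.13, SE, adjusted p = 3.40e-06), whereas the difference in GMP was -0.02 ± 0.13 (95% interval -0.28 to 0.25, adjusted p = 0.938). The effects differed between populations by 1.21 ± 0.18 (adjusted p = 0.00300).

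Bcl11a encodes a zinc finger repressor that binds NuRD subunits. Log2 values stood at 9.96, 9.998 and 10.02 in T2F3 MPP, against 10.64, 10.56, 10.52 and 10.65 in WT MPP. In GMP they were 9.35, 9.54 and 9.63 in T2F3, against 9.42, 9.68, 9.80, 9.52 and 9.62 in WT. The MPP groups were tight and apart, both stood above every GMP library, and the GMP groups overlapped. It was 1.52-fold lower in T2F3 MPP (-0.60 ± 0.09, SE, adjusted p = 1.67e-04), with a difference of -0.10 ± 0.09 in GMP (adjusted p = 0.481), which passed with array weights (-0.23, adjusted p = 0.0369). The difference between the effects was 0.50 ± 0.13 (adjusted p = 0.0571).

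Notch1 encodes the receptor that starts T cell development in the thymus. Log2 values stood at 10.19, 10.08 and 10.09 in T2F3 MPP, against 10.70, 10.77, 10.65 and 10.55 in WT MPP. They were 10.28, 10.17 and 10.52 in T2F3 GMP, against 10.06, 10.33, 10.68, 10.52 and 10.47 in WT GMP. The MPP groups were apart and the GMP groups overlapped, with WT GMP 1 lowest of all 15 libraries. It was 1.46-fold lower in T2F3 MPP (-0.55 ± 0.12, SE, adjusted p = 0.00335), with -0.09 ± 0.12 in GMP (adjusted p = 0.664) and a difference between the effects of 0.46 ± 0.17 (adjusted p = 0.165).

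Foxo1 encodes a forkhead activator that turns on the IL-7 receptor gene and the recombination genes in early lymphoid cells. The log2 values measured were 6.55, 6.95 and 6.79 in T2F3 MPP, against 7.33, 7.71, 7.34 and 7.50 in WT MPP. In T2F3 GMP they were 6.53, 6.22 and 6.88, against 6.01, 6.65, 6.71, 6.33 and 6.56 in WT GMP. WT MPP was above all other libraries, and T2F3 MPP overlapped both GMP groups. It was 1.63-fold lower in T2F3 MPP (-0.71 ± 0.18, SE, adjusted p = 0.00641), with 0.10 ± 0.17 in GMP (adjusted p = 0.750) and a difference between the effects of 0.81 ± 0.25 (adjusted p = 0.0997).

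Lef1 encodes a TCF/LEF factor of early B and T cell precursors. In MPP its log2 values were 2.59, 2.95 and 2.82 in T2F3, against 4.25, 5.13, 4.59 and 4.76 in WT. They were 2.55, 2.65 and 2.57 in T2F3 GMP, against 2.82, 3.19, 3.30, 3.35 and 3.21 in WT GMP. Each genotype pair was apart, and T2F3 MPP overlapped WT GMP and T2F3 GMP. In the fit without the filter it was 3.73-fold lower in T2F3 MPP (-1.90 ± 0.17, SE, adjusted p = 1.81e-07), 1.50-fold lower in T2F3 GMP (-0.58 ± 0.16, adjusted p = 0.0270), and its effects differed by 1.31 ± 0.24 (adjusted p = 0.00491). The GMP call was lost with a pseudocount of 8 (-0.28, adjusted p = 0.156). It was also lost when T2F3 GMP 1, 2 or 3 or WT GMP 2, 3, 4 or 5 was left out, with differences of -0.54 to -0.61 and adjusted p of 0.0526 to 0.0818.

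Sox4 encodes an HMG box activator that is also expressed in stem cells and many leukaemias. Log2 values stood at 9.89, 9.62 and 9.84 in T2F3 MPP, against 10.26, 10.59, 10.15 and 10.27 in WT MPP. They were 9.09, 8.56 and 9.44 in T2F3 GMP, against 8.91, 9.06, 9.21, 9.10 and 9.08 in WT GMP. The MPP groups were apart and above every GMP library, and T2F3 GMP spanned more than the whole WT GMP range. It was 1.45-fold lower in T2F3 MPP (-0.53 ± 0.16, SE, adjusted p = 0.0150), with -0.04 ± 0.15 in GMP (adjusted p = 0.886) and a difference between the effects of 0.49 ± 0.22 (adjusted p = 0.231). The MPP call was lost without T2F3 MPP 2 (-0.45, adjusted p = 0.0749).

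The test of the difference between the genotype effects, GMP minus MPP, passed for 1 of the 8 tested members, Satb1, with none in the other direction, against 1.38% of all tested genes called higher and 0.882% lower. All 8 estimates were positive, with a median of 0.50 against -0.01 over all tested genes. Without WT GMP 1 and T2F3 GMP 2 the test passed for 5 of the 8, the added members being Bcl11a (0.44), Foxo1 (0.86), Notch1 (0.45) and Sox4 (0.68). These 4 members also passed with array weights. Over all tested genes the test passed for 1204 without those libraries and for 1494 with array weights, against 274 in the main fit. Bcl11a passed under median centring, quantile normalization and the ribosomal covariate, at 0.43 to 0.56 with adjusted p of 0.0278 to 0.0439. It also passed without T2F3 GMP 1 (0.58, adjusted p = 0.0337) and without WT GMP 3 (0.55, adjusted p = 0.0389), and Sox4 without T2F3 GMP 2 alone (0.72, adjusted p = 0.0475). Without T2F3 MPP 3 it passed for 79 of all tested genes and without T2F3 MPP 1 for 586, against 274 with every library.

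**Figure D2:**
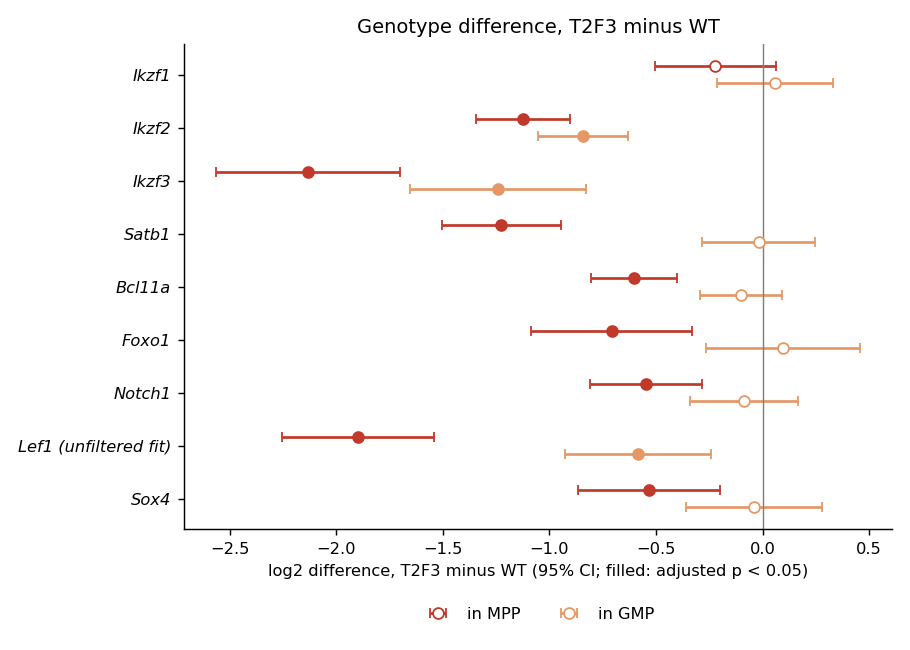
Log2 difference between genotypes, T2F3 minus WT (horizontal axis), for each member in MPP (upper of each pair) and GMP (lower); points are limma estimates, bars 95% intervals, and filled points passed the adjusted p threshold. All MPP estimates lie below 0, from -0.22 for Ikzf1 to -2.13 for Ikzf3, and the GMP intervals of 6 members include 0.

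Other gene groups were read by genotype beside these factors. Of all tested genes, 20.7% were called higher and 19.6% lower in T2F3 MPP, and 9.25% and 6.04% in T2F3 GMP. The ribosomal protein score, the mean log2 value of 76 ribosomal protein genes, was 12.86, 12.86 and 12.90 in T2F3 MPP and 12.20, 12.15, 12.25 and 12.17 in WT MPP. With this score as a covariate, 5 of the 8 members were still called lower, and Foxo1 (-0.32, adjusted p = 0.142) and Sox4 (-0.22, adjusted p = 0.272) no longer passed. All 10 markers of conventional dendritic cells were higher in T2F3 in MPP and in GMP, their summed level on the log2 scale running from 14.4 to 15.3 in T2F3 MPP and from 11.6 to 12.5 in WT MPP. Of 7 tested mature B cell markers, 5 were lower and 1 higher in T2F3 MPP, with summed levels of 7.88 to 8.37 in T2F3 and 8.16 to 8.78 in WT. Of 5 tested T cell markers, 1 was lower and 1, Lck, higher in T2F3 MPP, with summed levels of 9.49 to 9.58 in T2F3 and 8.80 to 9.04 in WT.

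Further marker lists were counted, to be read beside the same shares of all tested genes. Of 3 tested NK cell markers, 2 were higher and 1 lower in T2F3 MPP, and of 6 tested plasmacytoid dendritic cell markers 2 were higher and 1 lower. Of 7 tested erythroid markers 6 were lower in T2F3 in each population, with Hbb-b1 listed at 0 in all libraries. Of 9 tested markers of the MPP gate and of stem cells, 2 were higher and 5 lower in T2F3 MPP, and Cd48 was among the higher (1.53 ± 0.17, adjusted p = 6.70e-06). Of 12 granulocyte-monocyte markers, 3 were higher and 1 lower. In GMP the counts in T2F3 were 1 higher and 1 lower for mature B cells, 0 and 1 for T cells, 2 and 0 for NK cells, 2 and 0 for plasmacytoid dendritic cells, 2 and 1 for the MPP gate and 1 and 0 for granulocyte-monocyte markers. The part of these cell types, and of the ribosomal protein genes, in the members' differences was not tested. Every T2F3 MPP library had a higher ribosomal protein score than every WT MPP library. In MPP the covariate therefore cannot separate that score from genotype.

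In WT cells the myeloid population had lower values of most of these factors than the multipotent population. In WT, 6 of the 8 tested members were lower in GMP than in MPP and none was higher, against 23.2% of all tested genes lower and 25.4% higher. The median log2 difference was -0.98 over the members and 0.03 over all tested genes. Sox4 was 2.37-fold lower in WT GMP (-1.25 ± 0.14, SE, adjusted p = 1.71e-06) and Satb1 2.23-fold lower (adjusted p = 5.84e-07). Foxo1 differed by -1.02 ± 0.16 (adjusted p = 5.46e-05), Bcl11a by -0.99 ± 0.08 (adjusted p = 9.01e-08) and Ikzf2 by -0.96 ± 0.09 (adjusted p = 3.56e-07). Ikzf3 differed by -0.95 ± 0.18 (adjusted p = 3.59e-04), and Lef1, in the fit without the filter, by -1.51 ± 0.15 (adjusted p = 2.67e-07). Notch1 (-0.26 ± 0.11, adjusted p = 0.0617) and Ikzf1 (-0.18 ± 0.12, adjusted p = 0.215) did not pass. Under quantile normalization both passed, Notch1 at -0.40 (adjusted p = 0.00377) and Ikzf1 at -0.41 (adjusted p = 0.00277), and Notch1 also passed under median centring (-0.32, adjusted p = 0.0293) and without WT GMP 3 (-0.32, adjusted p = 0.0203).

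In T2F3, 3 of the 8 tested members were lower in GMP than in MPP and none was higher, against 11.7% of all tested genes lower and 10.5% higher. Those were Sox4 (-0.75 ± 0.17, SE, adjusted p = 0.00317), Ikzf2 (-0.68 ± 0.11, adjusted p = 2.32e-04) and Bcl11a (-0.49 ± 0.10, adjusted p = 0.00191). Satb1 differed by 0.05 ± 0.14 (adjusted p = 0.857), Ikzf3 by -0.06 ± 0.22 (adjusted p = 0.888) and Lef1, without the filter, by -0.20 ± 0.18 (adjusted p = 0.569). Foxo1 (-0.22 ± 0.19), Notch1 (0.20 ± 0.13) and Ikzf1 (0.10 ± 0.14) did not pass, with adjusted p of 0.495, 0.328 and 0.706. Notch1 passed as higher in T2F3 GMP than in T2F3 MPP when the ribosomal score was a covariate (0.22, adjusted p = 0.0280). The T2F3 step minus the WT step is the same quantity as the difference between genotype effects, so Satb1 and Lef1 are the members whose steps passed the test of their difference. T2F3 MPP and WT GMP libraries were apart for 3 of the 9 members, Ikzf3, Bcl11a and Sox4, and overlapped for the other 6, while 40.5% of all tested genes were apart in either direction. WT GMP values lay below every WT MPP value for 7 of the 9, against 20.4% of all tested genes.

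**Figure D3:**
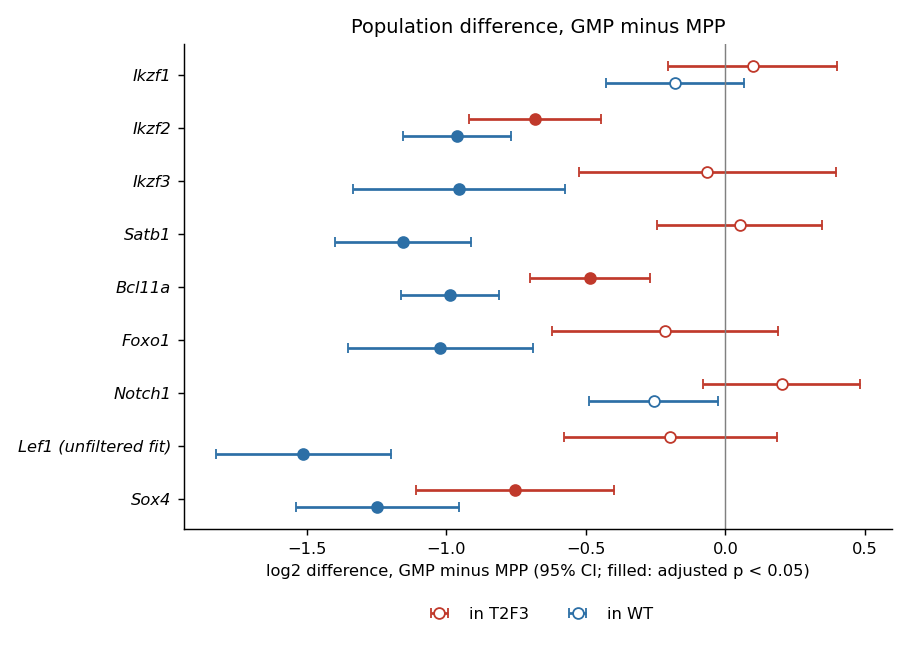
Log2 difference between populations, GMP minus MPP (horizontal axis), for each member in T2F3 (upper of each pair) and WT (lower); points are limma estimates, bars 95% intervals, and filled points passed the adjusted p threshold. The T2F3 estimate is 0.05 for Satb1 and -0.20 for Lef1, and the WT estimates run from -1.51 for Lef1 to -0.18 for Ikzf1.

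The partners and relatives of each factor were read from lists of known genes. Their counts here and below stand beside 20.7% of all tested genes called higher and 19.6% lower in T2F3 MPP. In T2F3 GMP these shares were 9.25% and 6.04%. Among relatives, Ikzf5, named after its value was seen, was at 0.02 in MPP (adjusted p = 0.846) and did not pass in GMP. Of the 13 NuRD subunits, all tested, 5 were lower and 2 higher in T2F3 MPP, and none passed in GMP. The remodelling ATPases Chd3 (-0.56 ± 0.11, SE, adjusted p = 0.00153) and Chd4 (-0.48, adjusted p = 0.0450, a call that 14 of 27 alternatives kept) were lower. The histone-binding subunit Rbbp4 was higher (0.65 ± 0.18, adjusted p = 0.0119), as was, named after its value was seen, the deacetylase Hdac1 (0.37 ± 0.09, adjusted p = 0.00438). With the ribosomal score as a covariate the NuRD count lower in T2F3 MPP was 1.

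In the Notch pathway, 1 of 4 tested receptors and ligands outside the members passed in each population: Notch4, a receptor known best from endothelial cells, was higher by 1.53 on the log2 scale in T2F3 MPP (adjusted p = 2.87e-07) and by 1.56 in T2F3 GMP (adjusted p = 2.36e-07). Of the 18 genes for processing and transcription, 2 were higher and 6 lower in T2F3 MPP, and 3 were higher and none lower in T2F3 GMP. Lfng, a glycosyltransferase that modifies Notch receptors, was higher by 1.02 in T2F3 MPP (adjusted p = 3.71e-06) and by 1.17 in T2F3 GMP (adjusted p = 8.37e-07). Rbpj, the DNA-binding partner, was higher by 0.59 in T2F3 MPP (adjusted p = 0.00287) and by 0.49 in T2F3 GMP (adjusted p = 0.0141). Notch2, named after its value was seen, differed by 0.10 in MPP (adjusted p = 0.599). Maml2, a coactivator, was lower in T2F3 MPP (-0.66, adjusted p = 0.00212) and higher in T2F3 GMP (0.43, adjusted p = 0.0400), and the GMP call held in 14 of 27 alternatives. Of 5 tested Notch target genes, 3 were lower in T2F3 MPP and 2 in T2F3 GMP, with Nrarp, a feedback inhibitor, at -0.70 in MPP (adjusted p = 0.00195) and -0.81 in GMP (adjusted p = 7.27e-04). Tcf7, encoding the TCF/LEF relative TCF1, was at -0.62 in MPP (adjusted p = 0.0120) and -0.59 in GMP (adjusted p = 0.0239). The count of machinery genes lower in T2F3 MPP was 1 with the ribosomal score as a covariate.

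Both tested FOXO relatives were lower in T2F3 MPP: Foxo3 at -0.65 ± 0.15 (SE, adjusted p = 0.00317) and Foxo4 at -0.56 ± 0.12 (adjusted p = 0.00290). Neither passed in GMP, at -0.17 and -0.22. Of 20 FOXO1 target genes, 6 were lower and 4 higher in T2F3 MPP, and 5 were lower and 7 higher in T2F3 GMP. Rag1, a subunit of the recombinase of antigen receptor genes, was at -2.20 ± 0.29 in MPP (adjusted p = 2.70e-05) and -1.35 ± 0.27 in GMP (adjusted p = 0.00269). S1pr1, a lipid receptor for lymphocyte egress, was at -2.35 ± 0.22 in MPP (adjusted p = 8.28e-07) and -1.09 ± 0.21 in GMP (adjusted p = 0.00180). Ccr7, a chemokine receptor, was higher in T2F3 GMP (1.28 ± 0.22, adjusted p = 6.87e-04). Chosen after their values were seen, Klf2, a quiescence factor of lymphocytes, was at 1.00 in MPP and 1.05 in GMP, and Bcl6, a repressor of germinal centre B cells, at 0.94 in MPP and 0.91 in GMP, all 4 past the threshold.

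In the TCF/LEF family and Wnt pathway, 8 of 21 tested genes were lower and 2 higher in T2F3 MPP, and 1 was lower and 2 higher in T2F3 GMP. Tcf7l2, a family member, was lower in T2F3 MPP (-0.68 ± 0.13, SE, adjusted p = 0.00120). Fzd1, a Wnt receptor, was higher in T2F3 MPP (1.79 ± 0.22, adjusted p = 1.46e-05) and in T2F3 GMP (1.55 ± 0.21, adjusted p = 6.19e-05). Ctnnbip1, an inhibitor of beta-catenin, was higher in T2F3 GMP (0.47, a call that 24 of 27 alternatives kept). With the ribosomal score as a covariate the count lower in T2F3 MPP was 1. Among the SOX relatives, Sox6 was 5.30-fold lower in T2F3 MPP (-2.41 ± 0.20, adjusted p = 2.87e-07) and 1.95-fold lower in T2F3 GMP (-0.97 ± 0.19, adjusted p = 0.00251). Sox13 was lower in T2F3 GMP (-0.64 ± 0.16, adjusted p = 0.0104), Sox12 passed in neither population, and Sox17, also named after its values were seen, was listed at 0 in all libraries.

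Of 21 tested early lymphoid genes, 10 were lower and 2 higher in T2F3 MPP, and 7 were lower and 3 higher in T2F3 GMP. The largest differences in MPP were in genes of the B lineage: Cd79a, part of the B cell receptor, at -2.46 ± 0.25 (SE, adjusted p = 1.85e-06), Rag1 as above, and Pou2af1, a B cell coactivator, at -2.18 ± 0.29 (adjusted p = 3.65e-05). In GMP, Pou2af1 was at -1.49 ± 0.28 (adjusted p = 0.00148), and Btla, an inhibitory receptor, was higher in T2F3 (1.91 ± 0.14, adjusted p = 1.65e-07). Named after their values were seen, Ebf1, a B lineage commitment factor, was at -2.17 ± 0.19 in MPP (adjusted p = 4.10e-07) and Il7r, encoding the IL-7 receptor, at -1.91 ± 0.30 in MPP (adjusted p = 1.74e-04) and -0.48 ± 0.29 in GMP (adjusted p = 0.277). Of this list 5 genes, Rag1 and Il7r among them, also stand on the FOXO1 target list. Of the mature B cell markers 5 of 7 were lower in T2F3 MPP, as given above, and their part in these differences was not tested. Dntt, encoding the terminal transferase that marks lymphoid-primed cells, did not pass in MPP (-0.06 ± 0.16, adjusted p = 0.776). Btla was also higher in T2F3 MPP (2.00 ± 0.15, adjusted p = 1.08e-07), and Flt3 was higher in T2F3 GMP (1.28 ± 0.11, adjusted p = 8.23e-07).

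**Figure D4:**
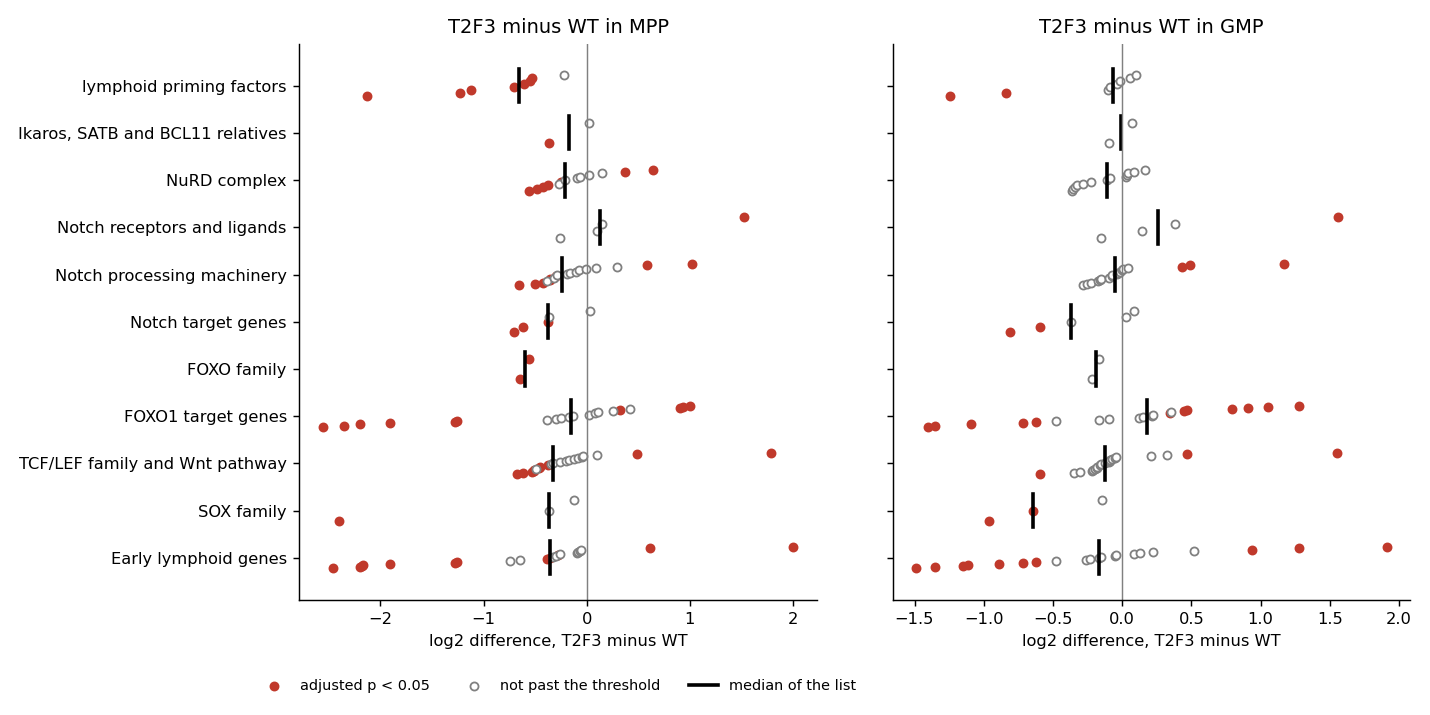
Log2 difference, T2F3 minus WT (horizontal axis), of every tested gene of the factor list and of 10 lists of relatives, partners and targets, in MPP (left) and GMP (right); filled points passed the adjusted p threshold and the bar is the median of a list. The factors' median lies at -0.66 in MPP and -0.06 in GMP. Filled points lie on both sides of 0 for the FOXO1 targets and early lymphoid genes, and only below 0 for the Notch targets.

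The same lists were read over the step between populations, where 11.7% of all tested genes were lower and 10.5% higher in GMP in T2F3. In WT these shares were 23.2% and 25.4%. Of the 21 early lymphoid genes, 8 were lower and 1 higher in GMP than in MPP in T2F3, and 17 were lower and none higher in WT. Dntt was 20.4-fold lower in GMP in T2F3 and 18.1-fold lower in WT (adjusted p = 6.87e-11 and 1.15e-11), and Flt3 was 2.34-fold lower in T2F3 and 5.94-fold lower in WT. Of the 20 FOXO1 targets, 3 were lower and 1 higher in T2F3, and 12 were lower and 1 higher in WT. Of 21 TCF/LEF and Wnt genes, 6 were lower in T2F3 and 8 in WT, with Tcf7l2 at -0.95 in T2F3 and -1.84 in WT. Of the 5 Notch targets, 3 were lower and 1 higher in T2F3, and 4 were lower and 1 higher in WT, where Gata3, a T cell factor, had the largest fall (-2.30 ± 0.14, SE, adjusted p = 3.39e-09). These counts share their libraries with the genotype comparisons.

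Similarity of pattern was described by Pearson's r over all 15 libraries, which share the group structure, so r is a description without a test. Among the members the highest r was 0.945, between Satb1 and Lef1, and the lowest was 0.265, between Ikzf1 and Ikzf2. Among the tested genes most like Ikzf3 were Chst3 (r = 0.985) and Cd79a (0.975), and those most like Ikzf2 were Tnik (0.985), Asph (0.984) and Mdga1 (0.982). Satb1 was followed by Phf14 (0.963), Lef1 (0.945) and Itga9 (0.940), and Lef1 by Tek (0.961), Acvr1b (0.958) and Prkg1 (0.957). Bcl11a had Mov10 (0.979), Phldb1 (0.978) and Ttl (0.975), and Sox4 had, among others, Tgfbr2 (0.979) and Dcaf8 (0.974). Foxo1 had Smap2 (0.965), Etnk1 (0.952) and Il17ra (0.947), Notch1 had Mdc1 (0.972), Kmt2e (0.964) and Helz (0.962), and Ikzf1 had Pum2 (0.912), Sp1 (0.906) and Stk4 (0.899).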

How the data were processed

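The RNA-seq values were deposited by the authors on a log2 scale, regularized per the file's name, in a table of 24424 Entrez IDs by 15 libraries. STAR, Bowtie, HOMER, DESeq2 and mm9 are named in the submitters' processing notes, without versions, roles or settings. Such values hold no counts, so depth and counting error are unknown. Symbols for 24345 genes came from the NCBI gene table of GRCm38.p6, and columns were matched to samples by name.

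From these values, limma 3.58.1 in R 4.3.3 fitted a mean per group to all 15 libraries (eBayes with trend and robust) over the 12133 genes with a mean of at least 4. Tests were two-sided, Benjamini-Hochberg adjusted over all tested genes, with a threshold of 0.05. A comparison's difference is on the log2 scale with limma's SE. Fits were tested on simulated data. The members, lists, tests and alternatives were chosen with earlier results of these data known. Of each list, up to 3 genes are named in each of the genotype comparisons and the WT step, those with the largest difference among called genes whose groups did not overlap, and genes outside that rule are marked as named after their values were seen, apart from gate antigens, markers listed at 0 and genes whose genotype effects differed between populations. For brevity, not all named genes of the marker lists and the WT step are given. Some genes that the rule names are not reported here.

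The alternatives tried were filters (none, or a minimum mean of 6), scalings (pseudocount of 8, median centring, quantile normalization), models (plain eBayes, array weights, only the compared groups, replicate blocks, a ribosomal protein covariate) and libraries left out, each in turn or WT GMP 1 with T2F3 GMP 2. Promoter sequences are from RefSeq, GRCm38.p6. Motif counts, joins and plots were made in Python 3.11.15 with pandas 2.3.3, Matplotlib 3.10.9 and NumPy 2.4.6.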

Additional observations from a re-analysis of the deposited data

Results flagged for a closer look

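The genotype effect differed between the populations by limma's test of the difference itself, GMP minus MPP, for several genes named above or on the marker lists. Among the factors these were Satb1, at 1.21 (adjusted p = 0.00300), and Lef1, at 1.31 in the fit without the filter (adjusted p = 0.00491). Among partners and targets the log2 difference was 0.65 for Chd3 (adjusted p = 0.0443), 1.09 for Maml2 (0.00848), 1.26 for S1pr1 (0.0435), 0.89 for Tcf7l2 (0.0208) and 1.44 for Sox6 (0.0155). Among early lymphoid genes it was 1.34 for Flt3 (adjusted p = 4.66e-04) and 1.05 for Ebf1 (0.0482).

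On the marker lists the difference was -1.32 for the T cell kinase gene Lck (adjusted p = 0.00300) and -1.30 for its adaptor Lat (0.00675), the only negative ones among these 15 genes. It was 1.19 for Bank1 (0.0218), 0.59 for Runx2 (0.0372), 0.62 for Tcf4 (0.0496) and 1.11 for Hlf (0.0204). In 18 checks of members within WT MPP and WT GMP, no single library stood far enough from its group to be set apart.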

How the results depend on the processing

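The members lower in T2F3 MPP kept their direction under every alternative run, and 5 to 8 were called, against 7 in the main fit. Foxo1 and Sox4 lost the call with the ribosomal covariate and Sox4 without T2F3 MPP 2, as given above. In GMP 1 member was called with a minimum mean of 6, which leaves Ikzf3 untested, and at most 3 otherwise. The difference between genotype effects, passed by 1 member, was passed by 2 under median centring, quantile normalization, the ribosomal covariate and without the filter, by 5 under array weights and without WT GMP 1 and T2F3 GMP 2, and by 1 to 2 without single libraries.

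Signs turned only for differences that were not called, Chd4 excepted. With the ribosomal covariate Ikzf1 was at 0.049 in MPP and 0.018 over the WT step, Satb1 at 0.038, Notch1 at 0.012 and Sox4 at 0.067 in GMP, and Chd4 at 0.0039 in MPP. Under quantile normalization Foxo1 in GMP was at -0.038, and the T2F3 step of Ikzf1 at -0.056 and of Ikzf3 at 0.15. Sox4 in GMP was at 0.15 without WT GMP 1 and T2F3 GMP 2. Under array weights the T2F3 step of Satb1 was at -0.14 and Dntt in MPP at 0.090. Without single libraries the GMP difference ran from -0.027 to 0.20 for Ikzf1, from -0.11 to 0.037 for Satb1, from -0.072 to 0.26 for Foxo1 and from -0.24 to 0.19 for Sox4. The T2F3 step then ran from -0.033 to 0.24 for Ikzf1, from -0.19 to 0.055 for Ikzf3 and from -0.13 to 0.18 for Satb1, and Dntt in MPP from -0.22 to 0.17. The cause of these turns was not tested.

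Counts over all tested genes moved by over 1.5 times as follows. From 4889 in MPP they were 7795 with array weights, 2859 and 2892 without T2F3 MPP 2 and 3. From 1855 in GMP they were 4103 with array weights, 2870 with the covariate, 1180 with the compared groups alone, 1174 without T2F3 GMP 2 and 3759 without WT GMP 1. From 2690 over the T2F3 step they were 4389 with array weights and 4254 with the covariate. From 274 for the difference between effects they were 1494 with array weights, 1204 without both libraries, 987 with the covariate, 436 without the filter, 140 with a minimum mean of 6, and 79 to 586 without single libraries. Of the lists, with a minimum mean of 6, which leaves fewer genes tested, 3 early lymphoid genes and 0 FOXO1 targets were lower in T2F3 MPP, 0 of either list in T2F3 GMP, and 8 and 5 over the WT step.

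The labels do not say that a replicate number marks an animal, and pairing was not assumed because not every correlation of same-numbered deviations was over 0.1. Between GMP and MPP of a genotype all 7 were positive, from 0.055 to 0.296 in T2F3 and from 0.059 to 0.464 in WT, and 2 of 3 numbers in T2F3 and 3 of 4 in WT correlated best with their own, a hint from the data and not the design. Across genotypes they ran from -0.326 to 0.517. With the replicate number as a block, 7 members were called in MPP, 2 in GMP, 1 for the difference between effects, 6 over the WT step and 3 over the T2F3 step, and 2732 of all genes in MPP, with 1 Notch machinery gene, 2 NuRD subunits and 5 Wnt genes lower in T2F3 MPP. With genotype and number as a shared replicate block, 2 members passed the difference between effects, Satb1 and Bcl11a (0.50, adjusted p = 0.0384). The regularized values set no depth limit that can be stated, and 3 to 5 libraries a group limit the precision.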
